A study of Homo sapiens with 4 samples.

Results

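The 40 genes described here act in the G2 phase and in mitosis, and they were taken from the read count table by their gene symbols, 40 of 61806 genes in the table. Each symbol matched 1 row. RNA was measured by poly(A) RNA sequencing in 2 human cell lines, MDA-MB-231, a breast cancer line, and MDA-MB-435, a melanoma line, each as control cells and after CPYPP, a small-molecule inhibitor of DOCK guanine nucleotide exchange factors, at 10 µM for 6 h. The MDA-MB-231 control, MDA-MB-231 CPYPP, MDA-MB-435 control and MDA-MB-435 CPYPP groups held 1 library each, so that within a line there was no replicate and no test. What the control cells received in place of CPYPP is not given in the sources used here, and the culture and exposure texts speak of MDA-MB-435 throughout, so the line was taken from each library's own cell line entry. The comparison of control with CPYPP asked how the G2/M and spindle genes of each line stood after the exposure, and the comparison of the lines asked whether they stood alike.

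Cells enter mitosis when CDK1, bound to A- and B-type cyclins, is freed of its inhibitory phosphates by CDC25 phosphatases, with PLK1 and the Aurora kinases driving spindle assembly. The spindle checkpoint holds the anaphase-promoting complex (APC/C) back until every kinetochore is attached, and CDC20 then activates that complex to destroy securin and cyclin B. Most of these genes are transcribed late in the cell cycle, from promoters that often carry CCAAT boxes, which bind NF-Y, and a cell cycle genes homology region (CHR), which binds the MuvB complexes with B-MYB and FOXM1.

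The libraries held between 17196385 and 22663954 counts. SOX10, a melanocyte transcription factor, had 0 and 1 counts in the MDA-MB-231 libraries and 3031 and 707 in the MDA-MB-435 control and CPYPP libraries. The melanocyte markers S100B and DCT had between 0 and 3 counts in MDA-MB-231 and between 464 and 1055 in the melanoma line. EDNRB had 70 and 81 counts in MDA-MB-231 and 1263 and 1606 in the melanoma line. MITF, the melanocyte lineage regulator, did not separate the lines, with 1585 and 690 counts in MDA-MB-231 and 1405 and 809 in the melanoma line, and PMEL had more counts in MDA-MB-231 (34 and 29) than in the melanoma line (13 and 4). The melanocyte markers TYR, PMEL and MLANA were at 14 counts or fewer in MDA-MB-435, and 1 of the 9 melanocyte markers was at 3 counts or fewer there against 5 of 9 in MDA-MB-231. EPCAM, CDH1 and KRT19, markers of epithelial cells, had between 287 and 3953 counts in MDA-MB-231 and between 0 and 4 in the melanoma line. The keratin KRT18 hardly separated the lines, with 8212 and 5653 counts in MDA-MB-231 and 5740 and 4077 in the melanoma line. KRT7 and KRT8 had between 8719 and 14488 counts in MDA-MB-231 and between 310 and 625 in the melanoma line. Of the 7 epithelial markers, 1 was at 3 counts or fewer in each MDA-MB-231 library and 3 or 4 were in the MDA-MB-435 libraries.

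After CPYPP most of the G2/M and spindle genes had lower levels in both lines. The cyclins CCNF and CCNA2, the kinase PLK1 and the APC/C activator CDC20 were among the 5 most negative in both lines. In a joint model of the 4 libraries that took the line as a block, called the common fit below, 12 of the 40 genes fell and 0 rose (edgeR quasi-likelihood test, Benjamini-Hochberg adjusted p under 0.05 over 16801 genes), where 2.85% of all genes tested fell and 4.39% rose. At an unadjusted p under 0.05, 17 members were lower and 1 was higher, where 10.4% of all genes were lower and 10.7% higher. The fit has 1 residual degree of freedom, with the lines as the only repeat of the exposure. The shares over all genes include genes with few counts, which are called less easily. DESeq2's Wald test called 19 members lower and 1 higher, where it called 5.17% of all genes lower and 7.52% higher. Without the block edgeR called 0 members, with 2 at an unadjusted p under 0.05. Fewer cells in G2 or mitosis and less RNA per such cell cannot be told apart in RNA from whole cultures.

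Within MDA-MB-231, 38 of the 40 genes had a lower TMM-scaled count after CPYPP, beside 51.2% of all genes tested in that line. There 8 members were over 1.5-fold lower (11.9% of all genes tested) while 0 were over 1.5-fold higher (12.4%). No member passed 2-fold there, where 5.43% of all genes were over 2-fold lower and 5.4% over 2-fold higher. In MDA-MB-435, 30 members had a lower scaled count, beside 51.4% of all genes tested in that line. Of the members, 4 were over 1.5-fold lower, a share of 10% that lay below the 18.3% of all genes, with 0 over 1.5-fold higher (10.9%). CCNF was the 1 member over 2-fold lower there, against 9.75% of all genes, and 0 were over 2-fold higher, against 4.02%. Genes with few counts pass a fold limit more easily, and among genes that reached 100 counts in a library of the line the shares over 1.5-fold lower were 5.88% in MDA-MB-231 and 8.62% in the melanoma line. CCNF, PLK1 and CDC20 were over 1.5-fold lower in both lines, 3 of 40 members against 4.99% of the 14262 genes tested in both lines, and 0 members were over 1.5-fold higher in both, against 4.35%.

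The median log2 fold change of the 40 genes was -0.31 in MDA-MB-231 and -0.14 in the melanoma line, beside medians over all genes tested of -0.01 and -0.02. The second of these member medians ran from -0.072, without the 10 members that overlap another gene over 10% of their length (a setting chosen after seeing the data), to -0.29 with counts scaled to the library total. The 95% counting interval of the fold change, an exact binomial interval that covers counting error only, lay wholly below 1 for 35 genes of MDA-MB-231 and for 22 of the melanoma line, and wholly above 1 for 1 and 7 genes. Over all genes tested the interval lay wholly below 1 for 23.6% in MDA-MB-231 and 25.9% in the melanoma line, and wholly above 1 for 26.3% and 29% of them. The interval narrows with more counts. Among genes that reached 100 counts in a library of the line, it lay wholly below 1 for 29.7% and 28.1%. It lay wholly above 1 for 32.0% and 39.0% of these genes, with MDA-MB-231 first. The 40 genes together held 0.919% of the MDA-MB-231 control library (exact 95% interval 0.915 to 0.923) and 0.711% after CPYPP (0.707 to 0.715). In MDA-MB-435 they held 0.784% (0.780 to 0.788) without CPYPP and 0.637% (0.633 to 0.640) with it.

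**Figure D1:**
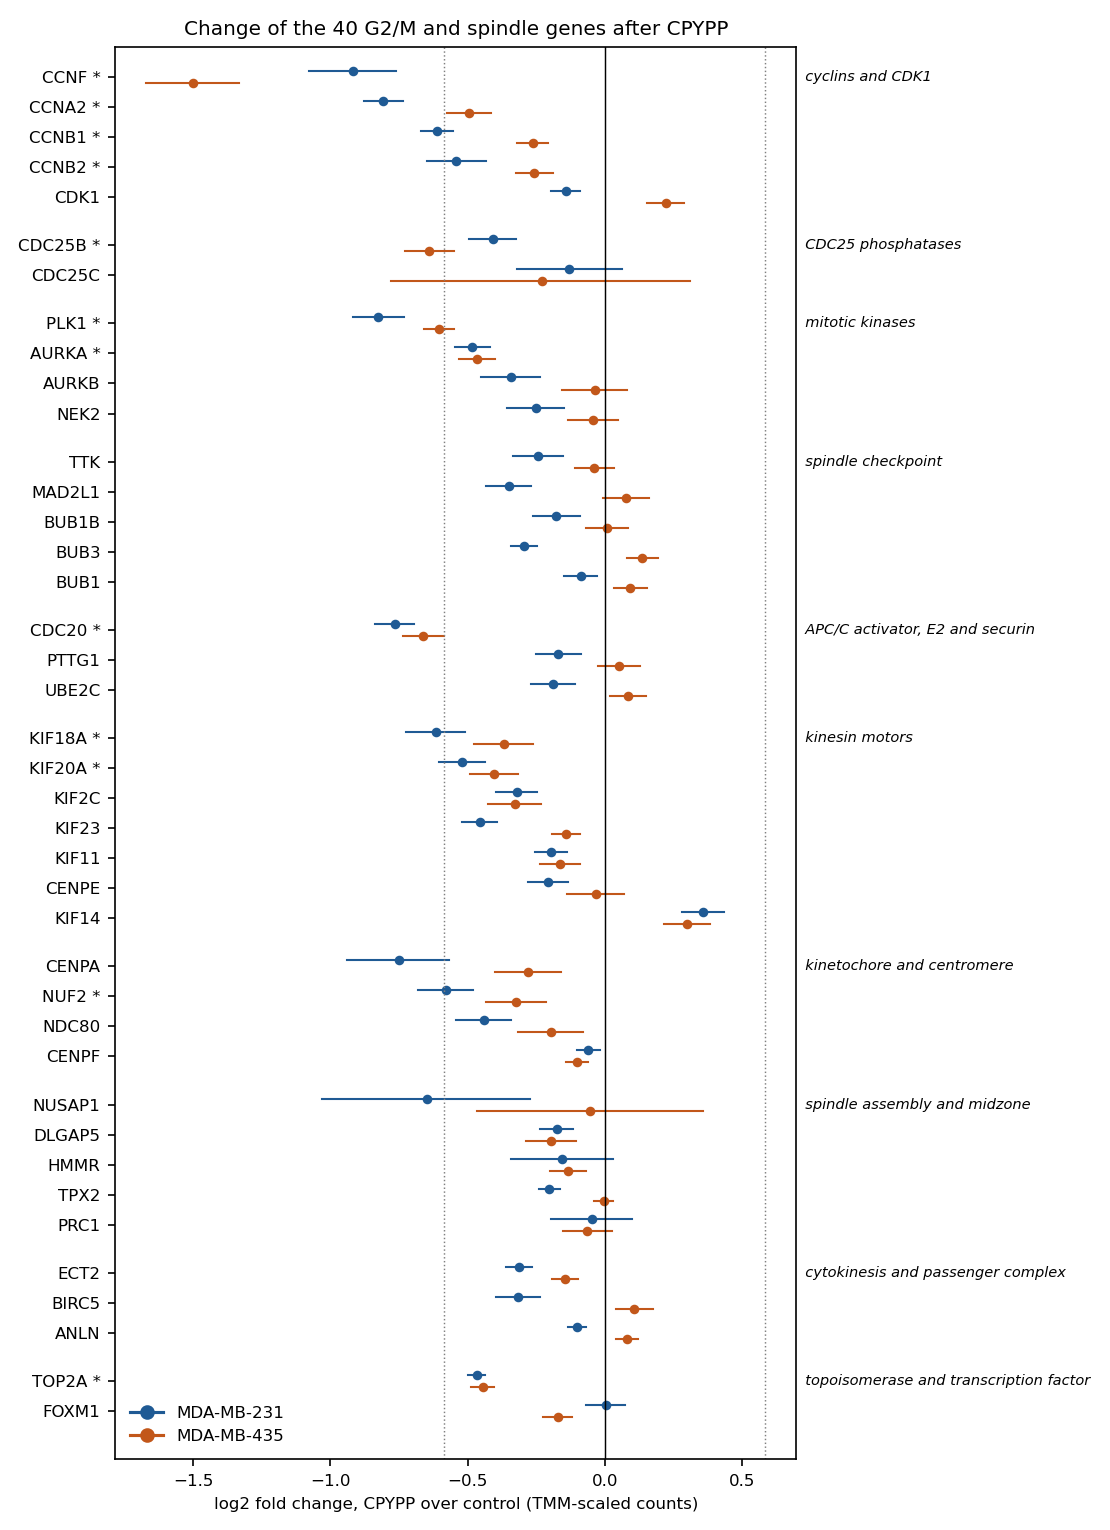
Log2 fold change of the 40 genes after CPYPP, grouped by role, with MDA-MB-231 in blue and MDA-MB-435 in orange. Points are TMM-scaled counts of the CPYPP library over the control library, bars are 95% counting intervals, dotted lines mark 1.5-fold, and an asterisk marks the 12 genes called lower in the common fit. Most blue points lie left of 0, while the checkpoint genes of MDA-MB-435 lie at or near 0.

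The promoters of the 4 genes with the most negative change in the common fit, and of KIF14, the 1 gene that was higher in both lines, are shown because they hold or lack matches of the late cell cycle elements named above. Each line gives the 250 bases before the transcript start from RefSeq (GRCh38.p14), 5′ to 3′ on the strand of the gene, with matches of the CCAAT box and of the CHR, whose 2 forms searched were TTTGAA and its variant TTCGAA, in capitals on either strand.
CCNF (chr16:2429197-2429446, plus strand): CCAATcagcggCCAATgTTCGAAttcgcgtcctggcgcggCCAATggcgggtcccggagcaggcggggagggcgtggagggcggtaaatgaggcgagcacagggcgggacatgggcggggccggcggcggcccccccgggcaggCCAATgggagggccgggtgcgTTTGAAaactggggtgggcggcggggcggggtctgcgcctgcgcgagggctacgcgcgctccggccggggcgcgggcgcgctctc
CDC20 (chr1:43358731-43358980, plus strand): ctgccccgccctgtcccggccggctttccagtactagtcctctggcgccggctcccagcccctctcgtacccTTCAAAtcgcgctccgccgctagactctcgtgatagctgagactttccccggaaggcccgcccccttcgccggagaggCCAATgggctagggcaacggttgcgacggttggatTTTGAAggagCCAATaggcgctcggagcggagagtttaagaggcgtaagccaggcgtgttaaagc
PLK1 (chr16:23678639-23678888, plus strand): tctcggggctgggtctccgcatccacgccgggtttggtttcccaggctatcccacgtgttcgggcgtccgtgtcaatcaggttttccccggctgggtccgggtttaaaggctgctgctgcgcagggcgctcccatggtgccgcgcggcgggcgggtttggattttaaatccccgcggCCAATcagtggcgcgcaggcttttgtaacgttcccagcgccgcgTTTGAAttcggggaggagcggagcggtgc
CCNA2 (chr4:121823884-121824133, minus strand): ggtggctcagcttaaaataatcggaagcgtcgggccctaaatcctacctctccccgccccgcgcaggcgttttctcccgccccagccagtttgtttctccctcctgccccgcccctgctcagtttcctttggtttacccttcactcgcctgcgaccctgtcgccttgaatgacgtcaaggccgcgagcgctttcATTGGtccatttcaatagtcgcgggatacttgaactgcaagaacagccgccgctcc
KIF14 (chr1:200620752-200621001, minus strand): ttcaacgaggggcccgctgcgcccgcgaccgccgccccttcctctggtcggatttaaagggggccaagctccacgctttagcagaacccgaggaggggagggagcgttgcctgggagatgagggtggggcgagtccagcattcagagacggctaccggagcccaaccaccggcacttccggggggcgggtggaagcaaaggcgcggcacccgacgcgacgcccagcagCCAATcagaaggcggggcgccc
CCNF held 4 CCAAT matches and 2 CHR matches, CDC20 held 2 of each, and PLK1 held 1 of each, the CCAAT match at base -73 and the CHR match at base -29 from the start. The CCNA2 window held 1 CCAAT match, at base -56, and no match of either CHR form. KIF14 held 1 CCAAT match, at base -22, and its CHR match lay at base 2, after the start and so outside the bases shown. A gene that fell could thus lack a match of the 2 CHR forms searched. The gene that was higher in both lines held matches of both kinds. Other CHR forms were not searched, so a gene without a match may still carry a CHR.

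Among the cyclins and CDK1, all 4 cyclins fell in the common fit and CDK1 was not called. CCNF, the F-box cyclin of an SCF ubiquitin ligase that marks late S and G2 proteins for destruction, stood at 51.5 CPM (counts per 1000000 library counts, TMM-scaled within the line) in the control and 27.2 in the CPYPP library of MDA-MB-231, and at 56.0 and 19.8 in the melanoma line. It was 1.89-fold lower (95% counting interval 1.70 to 2.11) in MDA-MB-231 and 2.83-fold lower (2.52 to 3.19) in the melanoma line, and its common log2 fold change was -1.25 (SE 0.174, edgeR adjusted p = 0.00243). It was the member with the most negative change in either line, and both CPYPP libraries lay below both control libraries.

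CCNA2, the cyclin A of S and G2 phase, stood at 232 and 133 CPM in MDA-MB-231 and at 151 and 107 in the melanoma line, with the control first in each pair here and below. The common log2 fold change was -0.69 (SE 0.114, edgeR adjusted p = 0.00576), from a 1.75-fold lower level in MDA-MB-231 and a 1.41-fold lower level in the melanoma line. For CCNA2, too, neither CPYPP library reached either control library. CCNB1 and CCNB2, the B-type cyclins that bind CDK1 for mitotic entry, followed at common log2 fold changes of -0.48 (edgeR adjusted p = 0.0336) and -0.44 (edgeR adjusted p = 0.0439). CCNB1 stood at 322 and 210 CPM in MDA-MB-231 and at 266 and 221 in the melanoma line. CCNB2 stood at 91.5 and 62.9 in MDA-MB-231 and at 192 and 161 in the melanoma line, so that its control level in one line lay below its CPYPP level in the other. For both B-type cyclins the lower level was about 1.5-fold in MDA-MB-231 (1.53 for CCNB1 and 1.45 for CCNB2) and 1.20-fold in the melanoma line for each.

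CDK1, the kinase that these cyclins activate, did not share their direction in both lines. It stood at 297 and 269 CPM in MDA-MB-231, 1.10-fold lower (1.06 to 1.15), and at 158 and 184 in the melanoma line, 1.17-fold higher (1.11 to 1.22). The common log2 fold change was -0.0040 (SE 0.117, edgeR adjusted p = 0.990). CDK1 was above its control in MDA-MB-435 under every scaling tried, by 1.05-fold to 1.17-fold.

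Of the CDC25 phosphatases, which remove the inhibitory phosphates from CDK1, CDC25B fell at -0.57 in the common fit (SE 0.118, edgeR adjusted p = 0.0180). It stood at 136 and 103 CPM in MDA-MB-231 and at 129 and 82.8 in the melanoma line, 1.33-fold and 1.56-fold lower. CDC25B was thus one of the few members with the more negative change in MDA-MB-435. CDC25C had 563 and 377 counts in MDA-MB-231 but 74 and 49 in the melanoma line, and its intervals included 1 in both lines (0.800 to 1.04 and 0.583 to 1.24), so that no difference was detectable at this depth.

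The mitotic kinases split into PLK1 and AURKA, which fell, and AURKB and NEK2, which were not called. PLK1, the Polo-like kinase of centrosome maturation and mitotic entry, stood at 140 and 79.3 CPM in MDA-MB-231 and at 344 and 226 in the melanoma line. It was 1.77-fold lower (1.66 to 1.89) and 1.52-fold lower (1.46 to 1.58), with a common log2 fold change of -0.76 (SE 0.110, edgeR adjusted p = 0.00301). Both MDA-MB-435 libraries lay above both MDA-MB-231 libraries, while each CPYPP library lay below the control of its own line. AURKA, which builds the spindle poles, stood at 251 and 180 in MDA-MB-231 and at 220 and 159 in the melanoma line, 1.40-fold and 1.38-fold lower, with a common value of -0.52 (edgeR adjusted p = 0.0177). AURKB, the kinase of the chromosomal passenger complex, was 1.27-fold lower in MDA-MB-231 and 1.03-fold lower in the melanoma line. NEK2, which loosens the link between centrosomes, was 1.19-fold and 1.03-fold lower, and for both genes the MDA-MB-435 interval included 1.

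None of the 5 spindle checkpoint genes was called in the common fit, where their log2 fold changes ran from -0.18 to -0.04. BUB1, BUB1B, BUB3, MAD2L1 and TTK encode the kinases and binding proteins that signal unattached kinetochores, and in MDA-MB-231 all 5 were lower, with log2 fold changes from -0.35 for MAD2L1 to -0.09 for BUB1. In MDA-MB-435 they ran from -0.04 for TTK to 0.14 for BUB3. BUB3 stood at 438 and 357 CPM in MDA-MB-231 and at 224 and 246 in the melanoma line. BUB1 stood at 246 and 232 in MDA-MB-231 and at 197 and 210 in the melanoma line. The intervals of BUB1 and BUB3 lay below 1 in one line and above 1 in the other, but with counts scaled to the library total both were lower in MDA-MB-435 (fold changes of 0.962 and 0.992), as was BUB1 with upper quartile scaling (0.988).

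CDC20, the APC/C activator and the checkpoint's target, fell while the other members of its group were not called. It stood at 223 and 131 CPM in MDA-MB-231 and at 185 and 117 in the melanoma line. It was 1.70-fold lower (1.62 to 1.79) and 1.58-fold lower (1.5 to 1.67), with a common log2 fold change of -0.76 (SE 0.108, edgeR adjusted p = 0.00270), and both CPYPP libraries lay below both controls. UBE2C, the ubiquitin-conjugating enzyme of the same complex, and PTTG1, the securin that it degrades, were 1.14-fold and 1.12-fold lower in MDA-MB-231. Their fold changes in the melanoma line were 1.06 (1.01 to 1.11) for UBE2C and 1.04 (0.983 to 1.09) for PTTG1, and that of UBE2C turned to 0.956 when scaled to the library total and to 0.981 with upper quartile scaling.

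**Figure D2:**
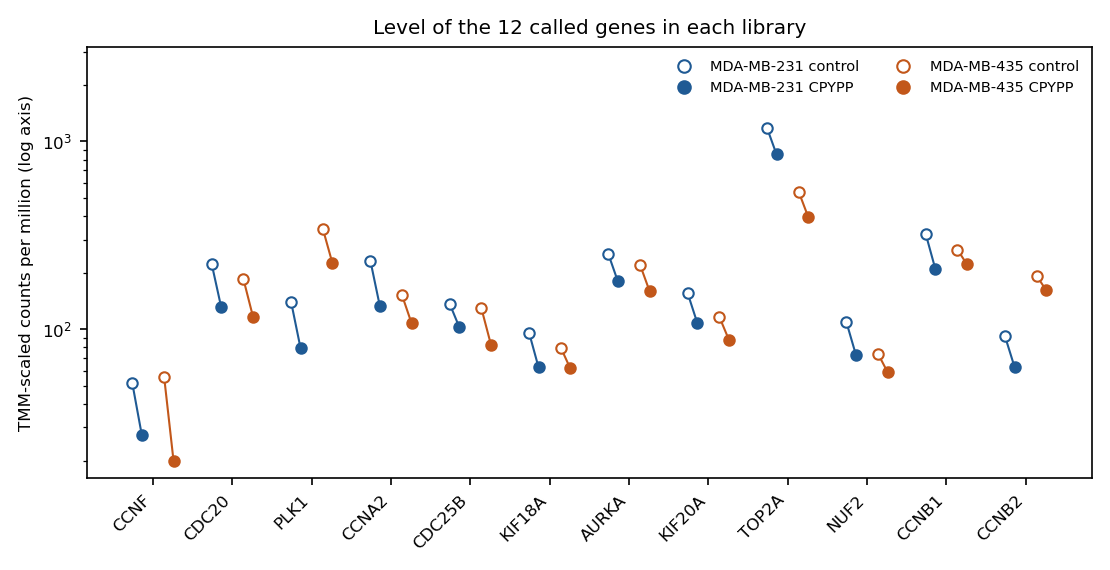
TMM-scaled CPM, on a log axis, of the 12 genes called lower in the common fit, in order of their change, with control libraries as open and CPYPP libraries as filled circles. Every line falls from control to CPYPP, from 51.5 to 27.2 for CCNF in MDA-MB-231 and from 56.0 to 19.8 in the melanoma line.

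Of the 7 kinesin motors, KIF18A and KIF20A fell and KIF14 was the 1 gene higher in both lines. KIF18A, which dampens chromosome movement at the metaphase plate, stood at 96.0 and 62.7 CPM in MDA-MB-231 and at 79.9 and 61.9 in the melanoma line, with a common log2 fold change of -0.53 (edgeR adjusted p = 0.0251). KIF20A, a motor of the central spindle and cytokinesis, stood at 155 and 108 and at 116 and 87.7, with a common value of -0.50 (edgeR adjusted p = 0.0206). In both genes each CPYPP library lay below both controls, as in CCNA2 and CDC20. KIF11, KIF23, KIF2C and CENPE were not called, with common log2 fold changes from -0.37 for KIF2C, the microtubule depolymerase, to -0.16 for CENPE, the motor that brings chromosomes to the plate.

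KIF14, a motor of cytokinesis, stood at 122 and 156 CPM in MDA-MB-231 and at 101 and 125 in the melanoma line. It was 1.28-fold higher (1.21 to 1.35) and 1.23-fold higher (1.16 to 1.30). The common log2 fold change was 0.29 (SE 0.109, edgeR adjusted p = 0.159), so the gene was not called, and it was called with DESeq2's Wald test.

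Among the kinetochore and centromere genes NUF2 fell, and CENPA lay just outside the threshold. NUF2, a subunit of the NDC80 complex that holds the microtubule, stood at 109 and 73.1 CPM in MDA-MB-231 and at 73.9 and 59.1 in the melanoma line, with a common log2 fold change of -0.49 (edgeR adjusted p = 0.0329). RGS5, which had between 21 and 138 counts, covers 61.9% of NUF2 on the opposite strand, and the strand setting of the counting is not given in the sources used here. NDC80, its partner in the complex, was 1.36-fold and 1.15-fold lower with a common value of -0.36 (edgeR adjusted p = 0.106). CENPA, the histone H3 variant that marks centromeres, had 786 and 342 counts in MDA-MB-231 and 1434 and 916 in the melanoma line. It was 1.68-fold lower (1.48 to 1.92) in MDA-MB-231, among the 5 most negative there, and 1.21-fold lower (1.12 to 1.32) in the melanoma line, and its adjusted p in edgeR was 0.0561. SLC35F6 covers 46.1% of CENPA on the same strand. CENPF, a large kinetochore protein, stood at 499 and 478 CPM in MDA-MB-231, among the 5 least negative there, and at 506 and 472 in the melanoma line, 1.04-fold and 1.07-fold lower.

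The spindle assembly and midzone genes TPX2, HMMR, NUSAP1, PRC1 and DLGAP5 were all uncalled, with common log2 fold changes from -0.40 for NUSAP1 to -0.10 for PRC1. TPX2, the activator of AURKA on spindle microtubules, was 1.15-fold lower in MDA-MB-231 and at a fold change of 0.997 (0.973 to 1.02) in the melanoma line. PRC1, the microtubule bundler of the midzone, stood at 39.4 and 38.1 CPM in MDA-MB-231, where it was among the 5 least negative, and at 101 and 96.6 in the melanoma line. NUSAP1 had between 87 and 186 counts, and its 1.57-fold lower level in MDA-MB-231 had an interval from 1.21 to 2.04. Another gene of the table without a symbol covers 99.9% of NUSAP1 and one covers 99.5% of PRC1, both on the same strand, and whether reads in the shared exons were lost to these genes was not tested.

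The cytokinesis and passenger complex genes ECT2, ANLN and BIRC5 were not called. ECT2, the exchange factor that activates RHOA at the cleavage site, was 1.24-fold lower in MDA-MB-231 and 1.11-fold lower in the melanoma line. BIRC5 (survivin) stood at 147 and 119 CPM in MDA-MB-231 and at 167 and 180 in the melanoma line. ANLN, the scaffold of the contractile ring, stood at 861 and 803 and at 446 and 471. BIRC5 and ANLN were thus lower in one line and higher in the other, but they were lower in MDA-MB-435 as well when scaled to the library total (fold changes of 0.972 and 0.953) or to the upper quartile (0.998 and 0.979).

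TOP2A, the topoisomerase that untangles sister chromatids, fell by nearly the same amount in both lines. It stood at 1178 and 852 CPM in MDA-MB-231 and at 538 and 395 in the melanoma line, 1.38-fold (1.35 to 1.41) and 1.36-fold (1.32 to 1.40) lower. Its common log2 fold change was -0.50 (SE 0.109, edgeR adjusted p = 0.0225). FOXM1, the transcription factor of the late cell cycle program, stood at 168 in both libraries of MDA-MB-231, a fold change with an interval of 0.955 to 1.05, and at 303 and 269 in the melanoma line, 1.13-fold lower (1.09 to 1.17). Its common value was -0.13 (edgeR adjusted p = 0.590).

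The lines were then set against each other gene by gene. The log2 fold change was lower in both lines for 29 genes, higher in both for 1, lower in MDA-MB-231 and higher in the melanoma line for 9, and the reverse for FOXM1. The shares of all genes in these classes were not computed. The 9 genes with opposite directions were CDK1, BUB1, BUB1B, BUB3, MAD2L1, UBE2C, PTTG1, ANLN and BIRC5, and this count depended on the scaling, at 1 with counts scaled to the library total, where CDK1 remained, and 2 with upper quartile scaling. The number of members with a lower scaled count in the melanoma line, 30 with TMM, was 38 and 37 under these scalings. The log2 fold change was the lower of the pair in MDA-MB-231 for 31 of 40 genes, and the median difference (MDA-MB-435 minus MDA-MB-231) was 0.19 on the log2 scale, beside 0.03 over all genes tested in both lines. Over the other scalings and filters that count ran from 27 to 34 and that median from 0.11 to 0.21. The counting interval of the difference lay above 0 for 26 genes, below 0 for 3 and included 0 for 11. It narrows with more counts, and the share of all genes with an interval that excluded 0 was not computed. Nor was the share of all genes with the lower change in MDA-MB-231. These intervals hold no spread between cultures, and with 1 library per condition the difference between the lines was not tested.

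NUSAP1 had the largest difference above 0, at 0.60 (0.05 to 1.14), on its low counts, followed by CENPA at 0.47 (0.25 to 0.69), BUB3 at 0.43 (0.36 to 0.50) and MAD2L1 at 0.43 (0.31 to 0.54). The genes with an interval below 0 were CCNF at -0.58 (-0.81 to -0.35), CDC25B at -0.23 (-0.35 to -0.11) and FOXM1 at -0.17 (-0.26 to -0.09). AURKA and TOP2A differed by 0.02 each. Across the 40 genes the changes in the lines had a Pearson r of 0.73 (Spearman rho 0.68), a description over genes of the same 4 libraries.

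**Figure D3:**
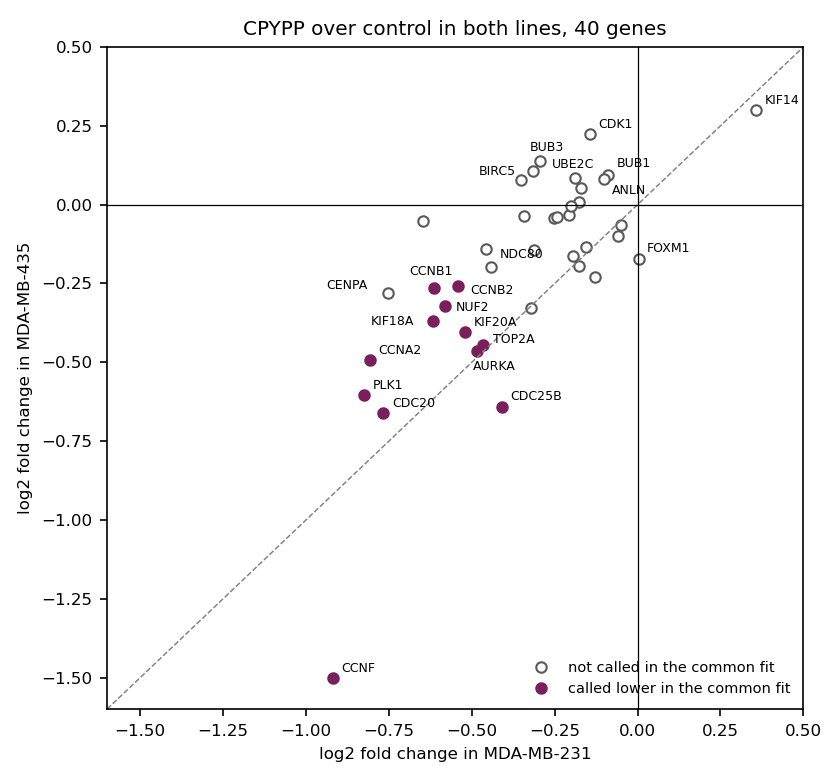
Log2 fold change after CPYPP in MDA-MB-231 (horizontal) against MDA-MB-435 (vertical) for the 40 genes, with the 12 genes called lower in the common fit filled. The dashed line marks equal change, and 31 of the 40 genes lie above it with TMM within each line. CCNF and CDC25B, the filled genes below it, had the more negative change in MDA-MB-435.

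In untreated cells the 40 genes were well expressed in both lines. Per exon length, and with the 4 libraries scaled together, their median was 38.9 FPKM in MDA-MB-231 and 32.4 FPKM in the melanoma line, beside medians over all genes tested of 3.40 and 3.34 FPKM. TOP2A and TPX2 were the highest in MDA-MB-231 at 189 and 178 FPKM, and TPX2 and UBE2C in the melanoma line at 175 and 135 FPKM. NUSAP1, which another gene covers almost wholly on the same strand, was the lowest in MDA-MB-231 at 2.30 FPKM, and CDC25C in the melanoma line at 0.938 FPKM.

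The untreated level differed by less than 2-fold between the lines for 32 genes. HMMR, a hyaluronan receptor and spindle protein, was 7.11-fold higher in MDA-MB-435, followed by PRC1 at 2.52-fold, PLK1 at 2.41-fold and CCNB2 at 2.07-fold. CDC25C was 8.05-fold higher in MDA-MB-231, followed by DLGAP5 at 2.40-fold, CENPE at 2.36-fold and TOP2A at 2.22-fold. Of all genes tested in both lines, 17.02% were over 2-fold higher in MDA-MB-435 and 14.72% in MDA-MB-231, beside 4 of 40 members in each direction. HMMR, with its large difference between untreated lines, was 1.11-fold lower in MDA-MB-231 after CPYPP, with an interval that included 1, and 1.10-fold lower in the melanoma line, while PLK1 was among the genes that fell. Across the 40 genes the common log2 fold change and the untreated FPKM had a Spearman rho of 0.0075, and the change and exon length one of 0.32, both over genes of the same libraries.

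A wider list of 90 other genes of mitosis (APC/C subunits, condensin, cohesin, entry control, further spindle and kinetochore genes, and MuvB) had a median log2 fold change of -0.17 in MDA-MB-231 and -0.01 in the melanoma line, closer to the medians of all genes than the 40 were. In the common fit 11 of the 90 fell and 3 rose. The 11 were ANAPC4, FBXO5, ESPL1, BORA, KIF18B, KIF22, KIFC1, INCENP, SPC24, HJURP and GTSE1, named here after their values were seen, with SPC24, a partner of NUF2 at the kinetochore, at -0.89 (edgeR adjusted p = 0.00626) and BORA, the cofactor through which AURKA activates PLK1, at -0.84 (edgeR adjusted p = 0.0172). FBXO5, the APC/C inhibitor EMI1, was at -0.64 and ESPL1, the separase that cuts cohesin, at -0.76. The 3 that rose, also named after their values were seen, were LIN54, the MuvB subunit that binds the CHR, at 0.73 (edgeR adjusted p = 0.00986), the cohesin release factor WAPL at 0.69 and the cohesin loader NIPBL at 0.60. No gene of the wider lists was over 2-fold changed in both lines.

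The 49 genes of S phase and replication had medians of -0.14 in MDA-MB-231 and 0.10 in the melanoma line. In the common fit 4 fell, GINS1, CCNE1, E2F8 and UHRF1, and 2 rose, ORC6 and DTL. ORC6, a subunit of the origin recognition complex, had 1067 and 1042 counts in MDA-MB-231 and 1559 and 2521 in the melanoma line. The share that fell was thus 30% of the 40 G2/M and spindle genes, 12.2% of the wider mitosis list and 8.16% of the S phase list, beside 2.85% of all genes tested. All genes tested include genes with few counts, which are called less easily. The lists were chosen with earlier results of these data known and were not compared with genes of like level. In the common fit the medians were -0.22 for the 40 genes, -0.12 for the wider list, -0.08 for S phase and -0.04 over all genes.

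**Figure D4:**
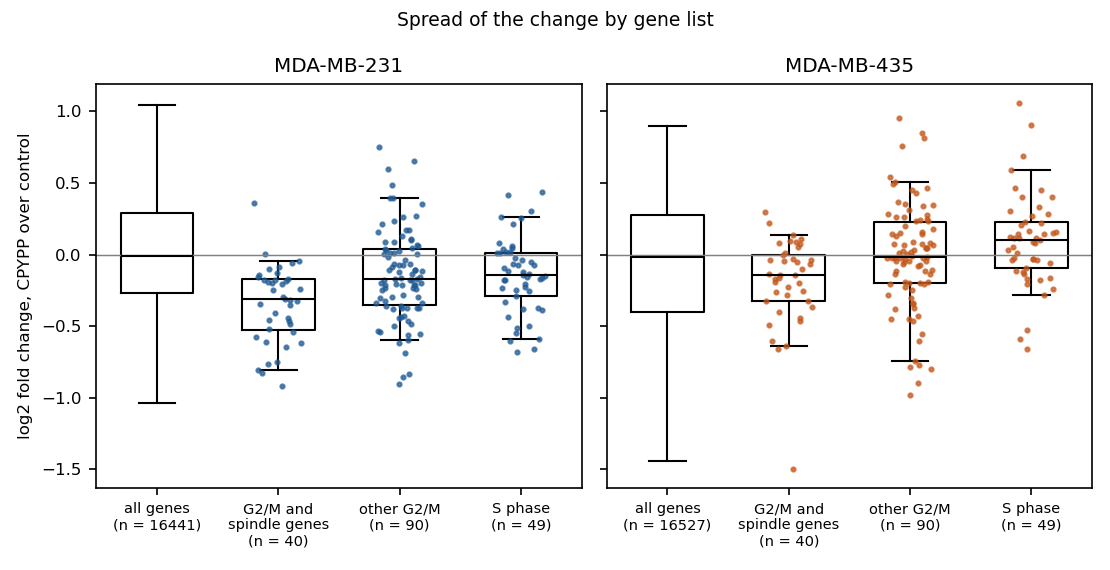
Log2 fold change after CPYPP by gene list in MDA-MB-231 (left) and MDA-MB-435 (right). Boxes span the quartiles with the median as a line, whiskers the 5th to 95th percentile, and points are single genes. The median of the 40 genes is the lowest of the 4 in both panels, at -0.31 on the left and -0.14 on the right. The gene lists were chosen with earlier results of these data known.

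Promoter windows of RefSeq (GRCh38.p14, 300 bases, from 250 before to 50 after the transcript start) were matched by symbol for 33 of the 40 genes, in 43 windows since some genes have several starts. UBE2C, BIRC5, TTK, AURKA, TPX2, FOXM1 and BUB3 had no match. A CCAAT match on either strand was found in 27 of the 33 genes (81.8%) and in 39.7% of the 27305 genes with a window. A CHR match, TTTGAA or TTCGAA on either strand, was found in 25 of 33 (75.8%) and in 19.5% of all genes with a window. Both were found in 1 window for 21 of 33 genes (63.6%) and for 7.85% of all. By window, 32 of the 43 held CCAAT and 28 held a CHR form, beside 34.6% and 16.4% of all 35116 windows. No CCAAT match overlapped a CHR match, and TTCGAA is its own reverse complement.

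Called genes and the other members of the 40 held the matches at similar shares. CHR matches were found in 8 of the 11 called genes with a window and in 17 of the 22 other members, and CCAAT matches in 10 of 11 and 17 of 22. The median common log2 fold change was -0.27 for the 25 genes with a CHR match and -0.30 for the 8 without. For CCAAT the median was -0.27 for the 27 genes with a match and -0.26 for the 6 without. Only TTTGAA and TTCGAA were searched as CHR forms, so a gene counted without a match may carry another form. The CHR shares and medians therefore describe these matches and cannot compare genes with and without a CHR. The CCAAT matches had a median position of base -87 and the CHR matches one of base -27 from the start, as the plot of motif positions shows. A match is a description of the letters and not a bound site.

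**Figure D5:**
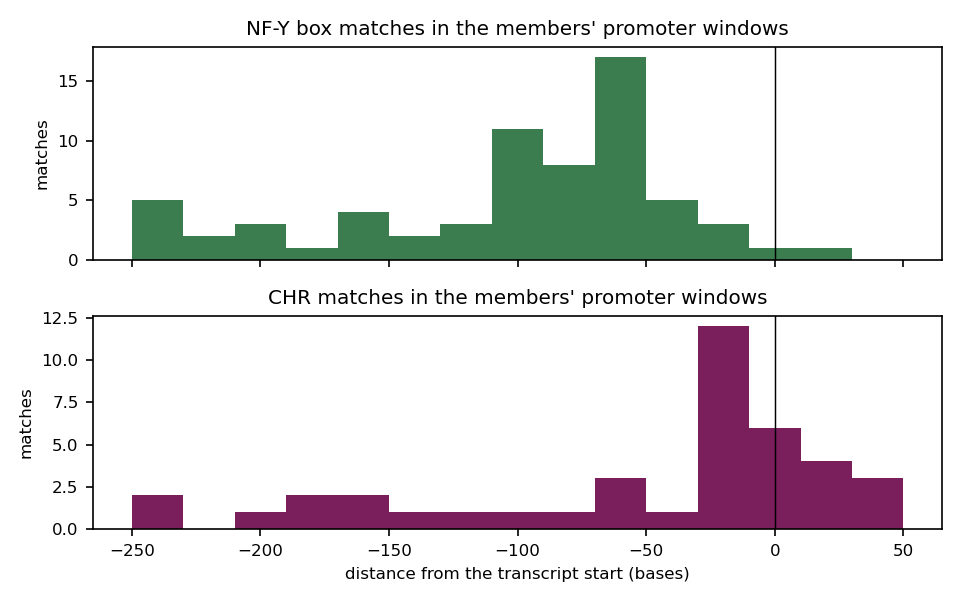
Number of CCAAT (NF-Y box, top) and CHR (bottom) matches by distance from the transcript start, in bins of 20 bases over the 43 windows of 33 genes, where overlapping windows count a shared match in each. Most CCAAT matches lie in the last 110 bases before the start, with a median of base -87, and most CHR matches lie nearer the start, with a median of base -27.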

How the data were processed

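Poly(A) RNA of 4 libraries was sequenced, and per the labels the authors trimmed reads with cutadapt 1.9.1, aligned them with HISAT2 2.2.1 and counted them with HTSeq 0.6.1. The values used are the raw read counts per gene that the authors deposited, with exon lengths and no normalization. The labels name GRCh37.p13, but the positions deposited are those of GRCh38: 58196 of the 58254 identifiers shared with GENCODE v29 overlap it, and all 40 genes do so on the same strand. Whether counting used the strand, and the annotation release, are not given in the sources used here.

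The 40 genes, their roles, the wider mitosis and S phase lists and the melanocyte and epithelial markers were chosen with earlier results of these data known. Within a line, counts were scaled by TMM over genes that reached 10 counts in either of its libraries (16441 genes in MDA-MB-231 and 16527 in the melanoma line), and the fold change has an exact binomial 95% interval for counting error only. It has no test, so genes are counted past 1.5-fold or 2-fold. The interval of a difference between lines is a normal approximation on the log scale from the 4 counts. The common fit used edgeR 4.0.16 in R 4.3.3 (quasi-likelihood test, filterByExpr, TMM over the 4 libraries, line as a block, 1 residual degree of freedom), with p-values adjusted over 16801 genes. Its residual is the spread between the lines' responses, not between cultures. The fit moderates this spread across genes, so that the SE of a gene reflects its own spread only in part. KIF2C, with a difference of -0.006 between the lines, had an SE of 0.109, and CCNB1, with 0.35, one of 0.116. FPKM was computed from these counts and the deposited exon lengths. Promoters were RefSeq windows of GRCh38.p14.

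Values per library are given for genes over 1.5-fold changed in both lines, called in the common fit, or among the 5 most negative or most positive in a line, and for a few others beside them. Other genes of the lists were to be named where over 2-fold changed in both lines, and those named are said to be chosen after their values were seen. DESeq2 1.42.0, other scalings and other filters were tried as alternatives. The fold changes, intervals and fit were tested on simulated data, in which changed genes had the same 2-fold change in both lines. Responses that differ between the lines were not simulated. Python 3.11.15 with pandas 2.3.3, scipy 1.17.1 and matplotlib 3.10.9 was used.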

Additional observations from a re-analysis of the deposited data

Results flagged for a closer look

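The following genes had a counting interval wholly below 1 in MDA-MB-231 and wholly above 1 in MDA-MB-435. The difference of their log2 fold changes, MDA-MB-435 minus MDA-MB-231, was 0.43 for BUB3, 0.42 for BIRC5, 0.37 for CDK1, 0.27 for UBE2C, and 0.18 for each of ANLN and BUB1. With 1 library per condition the difference between the lines was not tested. The higher value in MDA-MB-435 turned to a lower one under scaling to the library total for BUB3, BIRC5, UBE2C, ANLN and BUB1, and not for CDK1. The share of all genes with intervals on opposite sides of 1 was not computed. Among genes that reached 100 counts in a library of the line, the interval lay wholly below 1 for 29.7% in MDA-MB-231. It lay wholly above 1 for 39.0% of such genes in MDA-MB-435.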

How the results depend on the processing

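The 12 genes called lower in the common fit were also called with total counts, DESeq2 size factors, upper quartile scaling, no filter and DESeq2's Wald test, and the number of members called lower was then between 13 and 19. It was 9 of the 30 members left without the 10 overlapping members described below. DESeq2's Wald test called 19 lower and 1 higher, KIF14. Without a block for the line edgeR called 0 members, 2 at an unadjusted p under 0.05, and 0 of all genes, where the cause was not tested. Of the genes called in the common fit 39.3% were lower, and 56.3% with total counts. For MDA-MB-435 the median over all genes, on the log2 scale, moved from -0.02 to -0.16 with total counts and to -0.13 with upper quartile scaling, and without a filter it was 0.18 there and 0.20 in MDA-MB-231. The split of genes over 1.5-fold in MDA-MB-435 went from 62.7% lower to 76.7% with total counts and 73.9% with upper quartile scaling. The members' median there was -0.29 with total counts, with 7 members over 1.5-fold lower, -0.25 with upper quartile scaling and, chosen after seeing the data, -0.22 with TMM over the 4 libraries and -0.072 without the 10 members that overlap another gene over 10% of their length. The median difference between the lines, whose alternatives were also chosen after seeing the data, was 0.11 with total counts and 0.13 with TMM over the 4 libraries. Without mitochondrial genes the members' share of counts was 0.971% and 0.742% in MDA-MB-231 and 0.823% and 0.660% for the melanoma line, control first. The fold change in MDA-MB-435 turned below 1 with total counts for BUB1 (0.962), BUB3 (0.992), UBE2C (0.956), ANLN (0.953) and BIRC5 (0.972), and with upper quartile scaling for BUB1 (0.988), UBE2C (0.981), ANLN (0.979) and BIRC5 (0.998). BUB1B, MAD2L1 and PTTG1, whose intervals included 1 there, turned below 1 as well under both scalings. No other member whose interval excluded 1 turned direction under the alternatives run. The control and CPYPP libraries of a line were paired by the block for the line in the common fit, and by nothing else. Counts were few for CDC25C in MDA-MB-435, at 74 and 49, and for NUSAP1 in both lines, at 87 to 186. Whether NUSAP1 lost reads to the gene that covers it on the same strand was not tested.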
